A study of Homo sapiens with 12 samples.

Results

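The 2 mature miRNAs cut from the miR-21 hairpin, hsa-miR-21-5p and hsa-miR-21-3p, were followed through small RNA libraries of human acute myeloid leukemia (AML) cells. They are 2 of the 1204 mature miRNAs in the deposited count table, and they were selected on the measured share of the counts: miR-21-5p holds the largest share in MV4-11 cells, and its partner arm was taken with it. MV4-11 and Molm-14 are AML lines, each with an internal tandem duplication in FLT3. In each line, MPC1 knockout cells (MPC1 KO), made with CRISPR/Cas9 from a lentiviral vector with a GFP marker, were set against cells given the Empty Vector (EV), with 3 libraries in each of the 4 groups and 12 altogether. MPC1 is part of the mitochondrial carrier for pyruvate, and the comparison of MPC1 KO with EV asks how blocking pyruvate entry into mitochondria alters miRNAs. The sources do not say whether the KO cells were a pool or a clone, nor whether replicates were grown as separate cultures, so p-values measure the spread between these libraries, which may be technical. The mRNA of MPC1 is not read by small RNA libraries, and the deletion was not checked here. The paper reports lower MPC1 transcripts by qPCR in the KO cells of both lines.

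A miRNA gene is transcribed as a long precursor whose hairpin is cut into a duplex of a 5′ arm and a 3′ arm. Usually one arm is kept in an Argonaute protein, where bases 2 to 8, the seed, pair with target mRNAs, and the other arm is mostly degraded. miR-21-5p is the kept arm of MIR21, an abundant miRNA in many cell types that is known as an oncogenic miRNA in leukemias and solid tumors and that represses the tumor suppressor PDCD4. Transcription of MIR21 is known to respond to STAT3, AP-1 and NF-kB.

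The mature sequences that share the miR-21-5p seed are shown because they would be expected to pair with overlapping sets of targets. Of the 1204 deposited names, 1068 were matched to mature sequences in RefSeq (GRCh38.p14), and 2 of them carry the seed AGCUUAU, given below in capitals, 5′ to 3′.
hsa-miR-21-5p: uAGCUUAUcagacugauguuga
hsa-miR-590-5p: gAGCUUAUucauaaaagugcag
Counted from the 5′ end, 8 of the 22 positions of the pair are identical. The miR-21-5p sequence lies at chr17:59841273-59841294 on the plus strand and has a single annotated locus, so its counts come from 1 hairpin. That hairpin, at chr17:59841266-59841337, lies inside VMP1, a gene for an autophagy membrane protein on the same strand. It falls in an annotated untranslated region in 8 of the 10 VMP1 transcripts that span it, and in all 6 of the protein-coding ones (GENCODE). The miR-590-5p sequence lies at chr7:74191213-74191234.

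The total miRNA count was between 3870104 and 8683456 per library. All pairs of replicates differed beyond counting noise (chi-square per degree of freedom 13.7 to 189), and each was counted as 1 library. The blood cell miRNAs miR-142-3p, miR-142-5p and miR-223-3p were all present and together took 2.83% to 3.865% of the counts in the MV4-11 libraries and 5.26% to 6.26% in the Molm-14 libraries. Of the 7 miRNAs fixed as markers of other cell types (liver, neuron, epithelium, smooth muscle and fibroblast, red cell), neuronal miR-124-3p averaged below 1 count per 1000000 miRNA counts (CPM) in every group, and the 7 together made 231 to 993 CPM. In MV4-11 the highest were miR-143-3p, averaging 645 CPM in EV and 536 in MPC1 KO, and miR-200c-3p, with 219 and 252 CPM.

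miR-21-5p was the most counted miRNA in all 6 MV4-11 libraries and ranked first or second in all 6 Molm-14 libraries. In MV4-11 EV it held 24.2%, 25.6% and 23.4% of all miRNA counts in libraries 1, 2 and 3, a mean of 24.4% ± 1.10 (SD, n = 3). In MV4-11 MPC1 KO it held 21.52%, 21.02% and 19.89%, a mean of 20.8% ± 0.835 (SD, n = 3). The MV4-11 MPC1 KO libraries therefore all lay below the MV4-11 EV libraries. In Molm-14 EV the shares were 15.3%, 13.7% and 14.9%, a mean of 14.6% ± 0.838 (SD, n = 3). In Molm-14 MPC1 KO they were 12.99%, 12.95% and 12.78%, a mean of 12.9% ± 0.110 (SD, n = 3). The order of the means was thus MV4-11 EV, MV4-11 MPC1 KO, Molm-14 EV and Molm-14 MPC1 KO, and no pair of neighbouring groups overlapped. How many other miRNAs separated the lines in this way was not counted, so the order is not shown to be particular to miR-21-5p. These shares rest on 528553 to 2098049 counts of miR-21-5p per library, and the exact (Clopper-Pearson) 95% binomial intervals were narrow, for example 24.1% to 24.2% in MV4-11 EV library 1. They cover counting error only, because reads need not be independent molecules.

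The share of miR-21-5p in EV cells was 1.67 times as high in MV4-11 as in Molm-14, and in MPC1 KO cells 1.61 times as high. This line difference was part of how the miRNA was chosen, so it is given as a description, with no test. The next most counted miRNA in MV4-11 EV was miR-148a-3p, with 8.86% ± 0.341 (SD, n = 3), followed by let-7i-5p with 6.54%, miR-191-5p with 5.92% and let-7g-5p with 5.56%. In the individual MV4-11 libraries, miR-21-5p had between 2.10 and 3.02 times the counts of miR-148a-3p. In Molm-14 the same 2 miRNAs were close, with miR-148a-3p at 15.9% ± 3.04 (SD, n = 3) in EV cells and 14.96% ± 2.49 (SD, n = 3) in the MPC1 KO cells. There miR-21-5p had between 0.708 and 1.14 times the counts of miR-148a-3p and led only in EV library 1. Counts of different miRNAs are compared here as counts of whole mature molecules, and how well each was ligated into the libraries was not measured.

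The partner arm miR-21-3p was counted 791 to 1816 times per library and ranked between 110th and 143rd. In MV4-11 EV it made 209, 313 and 284 CPM, a mean of 268.5 ± 53.4 (SD, n = 3). In MV4-11 MPC1 KO it made 194, 237 and 188 CPM, a mean of 206.7 ± 26.8 (SD, n = 3). EV library 1 lay below MPC1 KO library 2, so these groups overlapped. In Molm-14 EV the values were 197, 225 and 211.8 CPM, a mean of 211.1 ± 13.8 (SD, n = 3). In Molm-14 MPC1 KO they were 156, 166 and 184 CPM, a mean of 168.7 ± 13.8 (SD, n = 3), all below the EV libraries. Between the lines, the EV groups of miR-21-3p overlapped at a ratio of 1.27, and the order of the 4 group means differed from that of miR-21-5p, with Molm-14 EV just above MV4-11 MPC1 KO by less than the spread of either group.

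**Figure D1:**
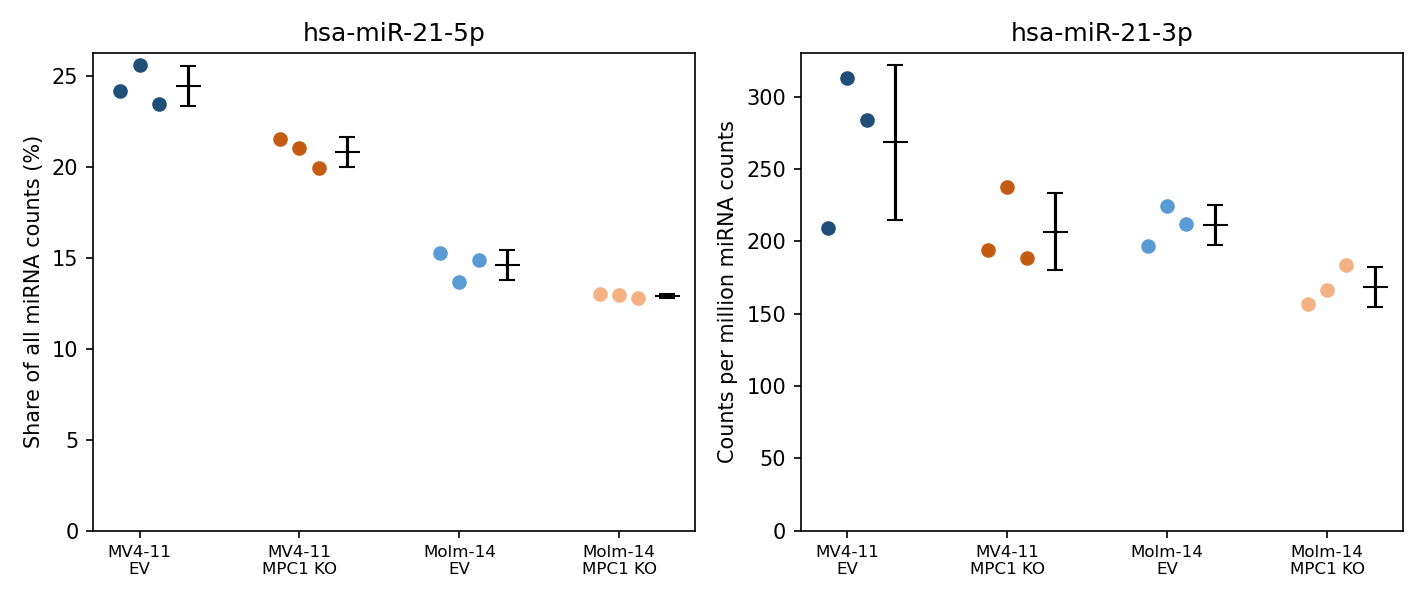
Left, the share of all miRNA counts taken by miR-21-5p (%), and right, miR-21-3p in CPM, for each of the 12 libraries (points) by group, with the group mean and SD (bar to the right of the points, n = 3). The miR-21-5p points of the 4 groups do not overlap, from 23.4% to 25.6% in MV4-11 EV down to 12.8% to 13.0% in Molm-14 MPC1 KO, while those of miR-21-3p overlap except between Molm-14 MPC1 KO and the other groups.

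Deletion of MPC1 went with lower values of both arms in both lines. The share of miR-21-5p was 14.7% lower in MV4-11 MPC1 KO than in EV and 11.6% lower in Molm-14, and that of miR-21-3p was 23.0% and 20.1% lower. Exact two-sided permutation tests of these shares gave p = 0.1 for miR-21-5p in each line and for miR-21-3p in Molm-14, the smallest p that 3 libraries against 3 can give, and p = 0.2 for miR-21-3p in MV4-11. Among the 659 miRNAs left by the low-count filter of edgeR, 4.4% had every MV4-11 MPC1 KO share below every EV share and 12.6% had this in Molm-14. Both held together for 4 miRNAs, or 0.607%. miR-21-5p was one of them, and the other 3, named after their values were seen, were miR-100-5p, miR-146a-5p and miR-618.

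On the log2 scale, edgeR's quasi-likelihood test with TMM scaling (trimmed mean of M values, which sets a library's total so that most miRNAs show little change) gave the following effects of MPC1 KO, with Benjamini-Hochberg adjusted p-values over those 659 miRNAs. In MV4-11, miR-21-3p fell by 0.44 (SE 0.12, adjusted p = 0.0389), with a 95% confidence interval from -0.69 to -0.19. miR-21-5p had a log2 fold change of -0.30 (SE 0.10, adjusted p = 0.107, 95% confidence interval -0.51 to -0.09), which did not pass the threshold of 0.05. So 1 of the 2 arms was called, where 3.03% of all tested miRNAs were called in either direction and 1.06% were called lower.

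In Molm-14 neither arm passed. The log2 fold change was -0.21 for miR-21-5p (SE 0.10, adjusted p = 0.263, 95% confidence interval -0.41 to 0.0044). For miR-21-3p it was -0.35 (SE 0.12, adjusted p = 0.0802, 95% confidence interval -0.60 to -0.10). There 6.83% of all miRNAs were called, and 4.1% were called lower. The median log2 fold change over all 659 miRNAs was -0.0035 in MV4-11 and -0.013 in Molm-14, so both arms lay below the median miRNA in both lines.

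The effect of MPC1 KO was not shown to differ between the lines for either arm. Molm-14 minus MV4-11, the effect on miR-21-5p differed by 0.10 (SE 0.14, adjusted p = 0.787, 95% confidence interval -0.20 to 0.39) and that on miR-21-3p by 0.09 (SE 0.17, adjusted p = 0.838, 95% confidence interval -0.26 to 0.44). For this difference 6.68% of all miRNAs were called. When the effects of both lines were averaged in the same fit, a contrast added after the values were seen, miR-21-5p had a log2 fold change of -0.25 (SE 0.07, adjusted p = 0.0333) and miR-21-3p of -0.40 (SE 0.08, adjusted p = 0.0041). Both arms passed there, against 5.31% of all miRNAs.

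In TMM-scaled CPM, where the scaled library total replaces the plain one, the MPC1 KO and EV libraries did not overlap for either arm in either line. On this scale every MPC1 KO library lay below every EV library for 7.13% of the 659 miRNAs in MV4-11, for 14.9% in Molm-14 and for 9 miRNAs, or 1.37%, in both lines. For miR-21-3p in MV4-11, where the shares overlapped, EV libraries 2 and 3 had 310 and 266 CPM and MPC1 KO libraries 187, 219.0 and 179 CPM. EV library 1 lay just above the highest MPC1 KO library, and the gap between the groups there depended on the scaling.

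**Figure D2:**
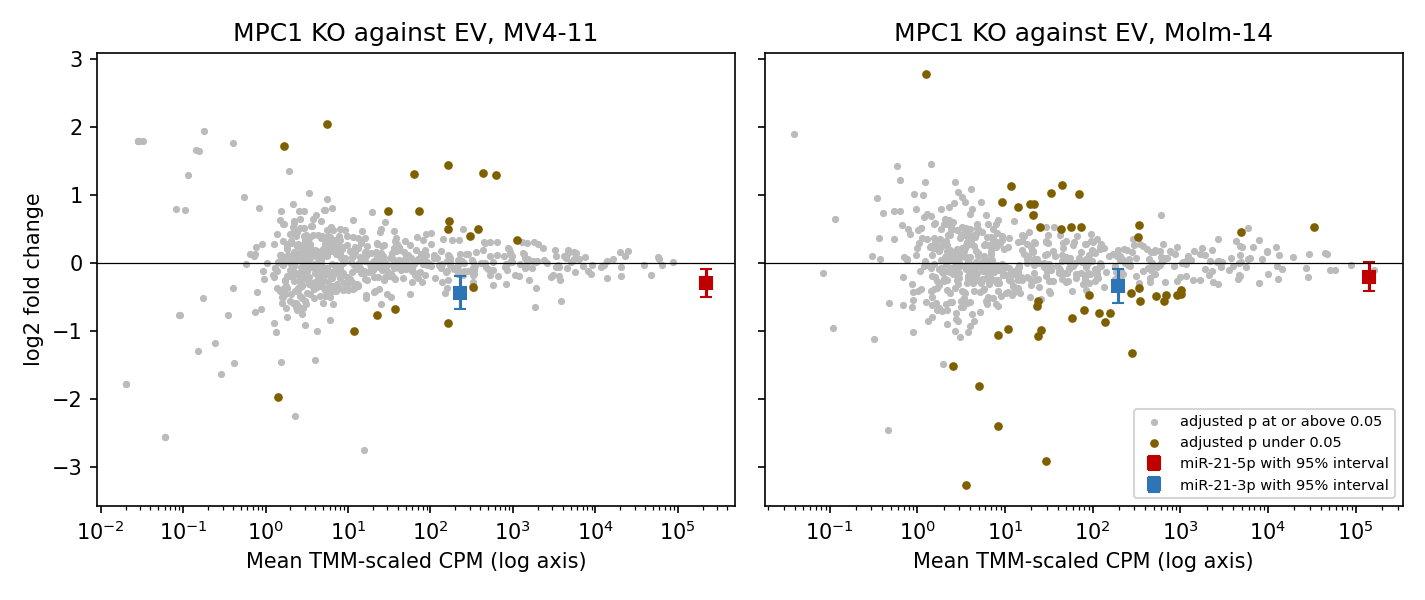
Mean TMM-scaled CPM of each of the 659 miRNAs in a cell line (horizontal, log axis) against its log2 fold change in MPC1 KO compared with EV (vertical), with miRNAs of adjusted p under 0.05 in brown and the miR-21 arms as squares with 95% confidence intervals. miR-21-5p is the rightmost point in MV4-11, and both arms lie below 0 in both panels.

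The calls in MV4-11 depended on the tool and on single libraries. Both arms passed with DESeq2, miR-21-5p at -0.31 (adjusted p = 0.0283) and miR-21-3p at -0.45 (adjusted p = 0.0303). With limma-voom miR-21-5p passed (adjusted p = 0.0434) and miR-21-3p missed (adjusted p = 0.0616). In edgeR, miR-21-3p also missed in 9 of the 12 fits that left out 1 library, with an adjusted p of up to 0.226 without MV4-11 EV library 2.

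**Figure D3:**
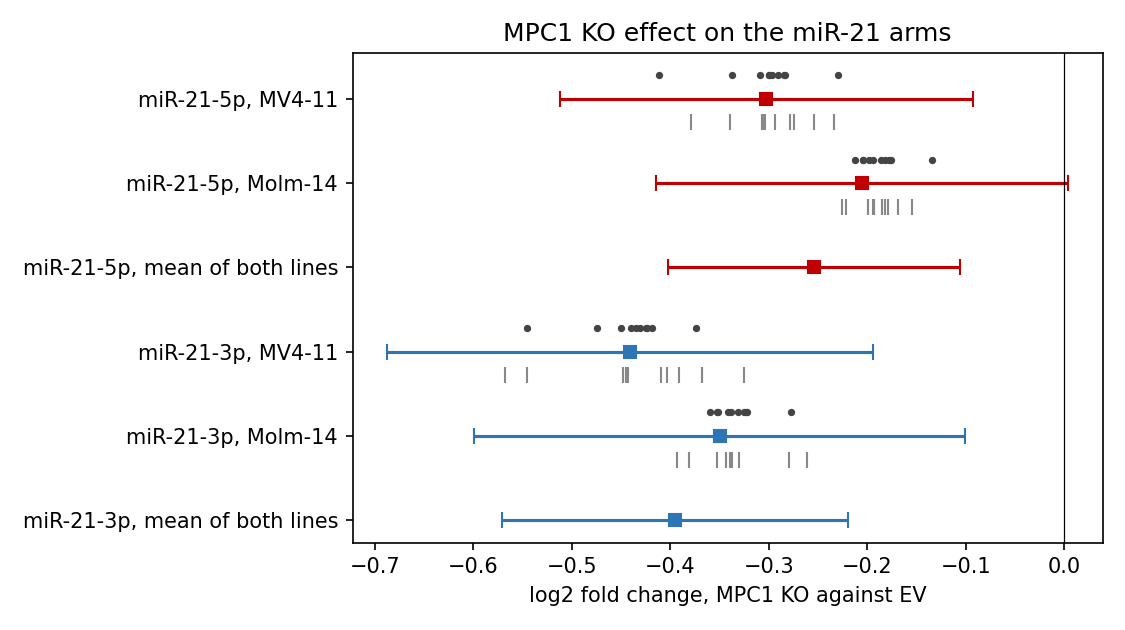
The log2 fold change of each arm in MPC1 KO compared with EV, with its 95% confidence interval (squares and bars), in each cell line and averaged over both. Dots above a square are other tools, scalings and filters and ticks below it are fits that leave out 1 library; all of them lie below 0, from -0.57 to -0.13.

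In Molm-14 the summed markers of other cell types differed with the genotype, and miR-143-3p carried the lower sum. The sum was 289 to 307 CPM in EV and 231 to 248 in MPC1 KO, with no overlap. Of the 6 tested of the 7, only miR-143-3p, a miRNA of smooth muscle and fibroblasts, passed, with a log2 fold change of -0.88 (SE 0.10, adjusted p = 3.74e-06). It averaged 172 CPM in EV and 95.3 in MPC1 KO, while epithelial miR-200c-3p averaged 108 and 127 CPM (log2 fold change 0.20, adjusted p = 0.330 in edgeR). Their sum in MV4-11 was 815 to 993 CPM in EV and 810 to 897 in MPC1 KO, which overlapped. The blood cell miRNAs made 5.26% to 5.84% of the Molm-14 EV counts and 6.04% to 6.26% of the MPC1 KO counts, and none of the 3 passed the test in either line. The part of these differences in the values of the miR-21 arms was not tested.

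The number of miR-21-5p counts for each miR-21-3p count was between 608 and 1155, so the 3p arm made at most 0.164% of the counts of the hairpin. In MV4-11 EV the ratios were 1155, 819 and 826, a mean of 933 ± 192 (SD, n = 3). In MV4-11 MPC1 KO they were 1108, 885 and 1056, a mean of 1016 ± 117 (SD, n = 3). EV library 1 was higher than every MPC1 KO library and the other EV libraries were lower, so the groups overlapped. In Molm-14 EV the ratios were 775, 608 and 702, a mean of 695 ± 83.7 (SD, n = 3). In Molm-14 MPC1 KO they were 831, 779 and 696, a mean of 768.5 ± 68.0 (SD, n = 3), again overlapping. In each genotype the MV4-11 ratios all lay above those of Molm-14. The lines did not overlap, in either direction, for 37.4% of the 99 hairpins described below in EV, for 56.6% in MPC1 KO and for 27.3% in both, so such a separation was common.

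Compared by limma on the log2 scale over the 99 hairpins with at least 10 counts of each arm in every library, the ratio in MPC1 KO minus that in EV was 0.14 in MV4-11 (SE 0.16, adjusted p = 0.944, 95% confidence interval -0.22 to 0.50). In Molm-14 the difference was 0.15 (SE 0.16, adjusted p = 0.690, 95% confidence interval -0.21 to 0.51), and between the lines the effect differed by 0.01 (SE 0.23, adjusted p = 0.977). Averaged over both lines it was 0.14 (SE 0.12, adjusted p = 0.872). Exact two-sided permutation tests gave p = 0.6 in MV4-11 and p = 0.4 in Molm-14. The intervals span a change of either sign, so a difference between the arms in their response to MPC1 KO was not shown. limma called 0 of the 99 ratios (0%) in MV4-11, in Molm-14 and for the difference, with or without an intensity trend, while 6, 11 and 14 of them had an unadjusted p under 0.05. The groups did not overlap for 11.1% of the hairpins in MV4-11 and 26.3% in Molm-14, and those of miR-21 did in both.

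**Figure D4:**
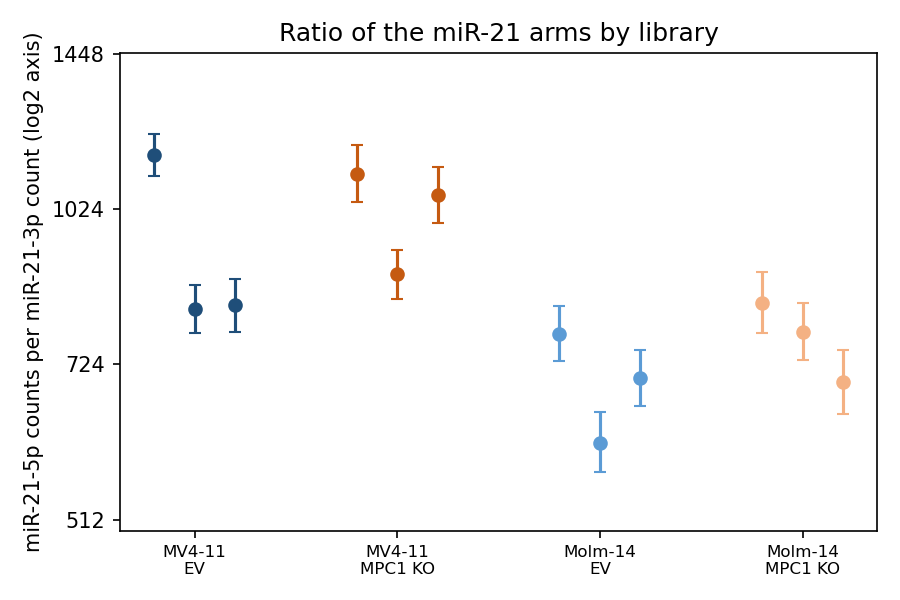
Counts of miR-21-5p for each count of miR-21-3p (log2 axis) in each of the 12 libraries, with 95% exact binomial intervals for counting error. MV4-11 libraries lie between 819 and 1155 and Molm-14 libraries between 608 and 831, and the MPC1 KO and EV libraries overlap in each line.

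The strong bias to 1 arm was shared with a few other hairpins. The mean log2 ratio of miR-21 over the 12 libraries was 9.71, compared with a median of 3.64 for the absolute log2 ratio of the 99 hairpins, and miR-21 was the fourth most biased. let-7g, with a log2 ratio of 13.4, miR-155, with 11.4, and let-7i, with 10.9, ranked above it, and miR-20a, with 9.32, just below. Of the 99 hairpins, 50 had more counts of the 5p arm.

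The other miRNA with the same seed among the names matched to a sequence, miR-590-5p, was low in all libraries. It had 20.1, 16.1 and 34.0 TMM-scaled CPM in MV4-11 EV and 17.1, 25.4 and 23.3 in MV4-11 MPC1 KO. In Molm-14 it had 32.5, 44.3 and 30.1 CPM in EV and 30.4, 26.2 and 32.1 in MPC1 KO. The groups overlapped in both lines, and its means were higher in Molm-14, the reverse of miR-21-5p. Its log2 fold change in MPC1 KO was -0.07 in MV4-11 (SE 0.22, adjusted p = 0.940) and -0.27 in Molm-14 (SE 0.22, adjusted p = 0.568).

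Other miRNAs whose genes are known to respond to STAT3, NF-kB or AP-1 were read as a list of 8, all of which were tested. In MV4-11, 1 of the 8 rose and no other member passed, and the median log2 fold change was -0.02, beside 3.03% called and a median of -0.0035 over all miRNAs. The one that rose was miR-132-3p, by 0.76 (SE 0.15, adjusted p = 0.0034). In Molm-14, 2 rose and 1 fell, with a median of 0.14, beside 6.83% called and a median of -0.013 over all miRNAs. miR-155-5p, a miRNA of immune activation with a known role in FLT3-ITD leukemia, rose by 0.52 (SE 0.12, adjusted p = 0.0073), and miR-132-3p by 0.49 (SE 0.15, adjusted p = 0.0448). miR-146a-5p, a feedback inhibitor of NF-kB signaling, had a log2 fold change of -0.74 there (SE 0.10, adjusted p = 1.89e-05), and it was the 1 member of the list whose effect differed between the lines, by -0.47 (SE 0.14, adjusted p = 0.0378), where 6.68% of all miRNAs were called. The other members, miR-146b-5p, miR-212-3p, miR-221-3p, miR-222-3p and miR-181b-5p, did not pass in either line.

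The pattern over the 12 libraries most like that of miR-21-5p, by the root mean square difference of centred log2 CPM among the 331 miRNAs with a mean of at least 10 CPM, was that of miR-98-5p, a let-7 family member (0.15). It was followed by miR-502-3p (0.17) and miR-301a-5p (0.17), compared with a median of 0.58 over all. miR-98-5p averaged 3655 TMM-scaled CPM in MV4-11 EV and 3507 in MV4-11 MPC1 KO. In Molm-14 it averaged 2148 in EV and 2175 in MPC1 KO, so its mean was not lower in MPC1 KO there. The partner arm miR-21-3p ranked 34th, at 0.27. Nearest to miR-21-3p were miR-532-3p (0.20), let-7d-3p (0.21) and miR-98-3p (0.21), with miR-21-5p 19th and a median of 0.54. These libraries share depth and scaling, and the ranks are a description.

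Because miR-21-5p takes so large a share, a count divided by the library total depends on it. Leaving miR-21-5p out of the total multiplied the share of every other miRNA by 1.31 to 1.34 in the MV4-11 EV libraries, by 1.25 to 1.27 in MV4-11 MPC1 KO and by 1.15 to 1.18 in the Molm-14 libraries. With total counts as the scaling, the log2 fold changes of the other 658 miRNAs in MPC1 KO then moved, with a median of -0.066 for MV4-11 and -0.029 for Molm-14. The change of the share alone gives -0.067 and -0.028. Between the EV groups of the lines, the same change of share corresponds to a shift of 0.18 on the log2 scale, toward higher values in MV4-11.

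The shift differed with the scaling. With TMM on all 12 libraries the median shift was 0.020 in MV4-11 and 0.029 in Molm-14, opposite in sign to that with total counts. TMM compares each library with a reference library, and leaving out miR-21-5p changed that reference from Molm-14 EV library 3 to Molm-14 EV library 2. With library 3 held as the reference, a setting added after the values were seen, the shift was -0.012 in MV4-11 and 0.00013 in Molm-14. These 2 values were computed from the scaled library totals, with no new fit. The TMM shift in MV4-11 was -0.10 when Molm-14 EV library 2 or library 3 was left out of the fit, larger than with total counts. With relative log expression (RLE) factors it was 0.00074 and -0.00047, and with upper-quartile factors 0.00021 and -0.011.

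**Figure D5:**
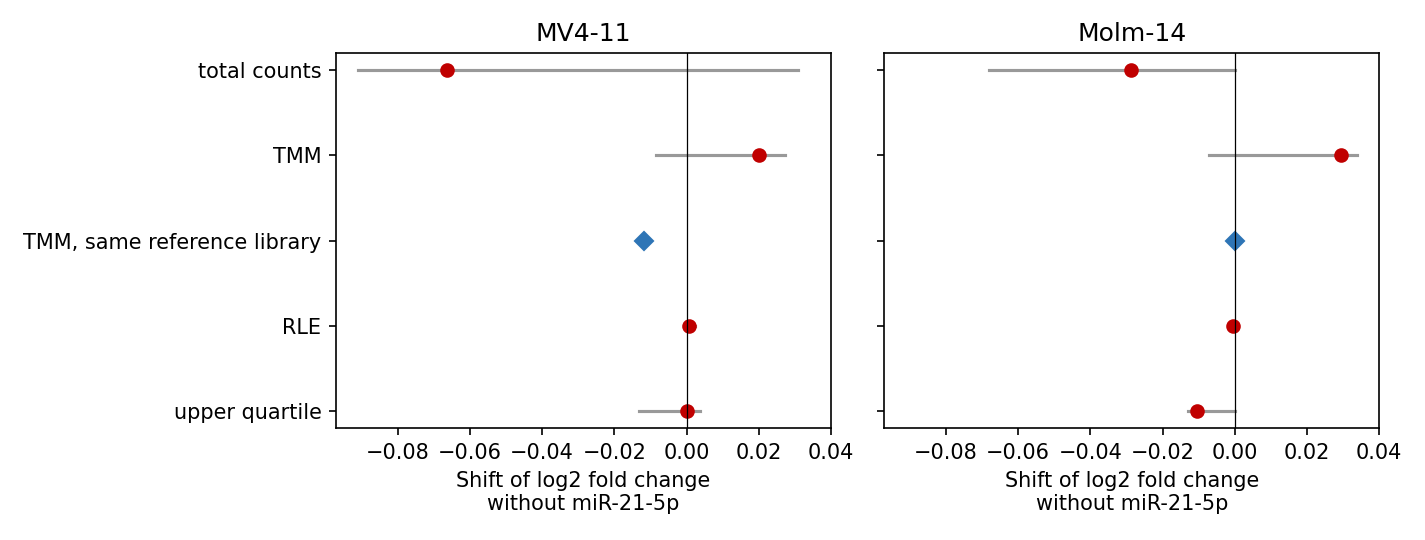
Shift of the log2 fold change (MPC1 KO compared with EV) of the other 658 miRNAs when miR-21-5p was left out of the scaling, for 5 ways to scale the libraries in each cell line. Circles are medians with lines from the lowest to the highest miRNA. Diamonds are the shift given by the scaled library totals alone, with no new fit. The value is -0.066 with total counts in MV4-11 and within 0.03 of 0 in all other cases.

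The calls with TMM were as follows for all 12 libraries. The fits with and without miR-21-5p used different reference libraries, and calls were not counted with the reference held. Without miR-21-5p in the scaling, 22 miRNAs were called in MV4-11 and 20 with it, 19 of them in common, and in Molm-14 47 and 45, with all 45 in common. In MV4-11 the call lost was that of miR-21-3p, whose adjusted p went from 0.0389 to 0.0692, and those gained were miR-146b-5p, miR-629-5p and let-7b-5p, each at adjusted p = 0.0387 in edgeR. In Molm-14, miR-874-3p (adjusted p = 0.038 in edgeR) and miR-221-3p (adjusted p = 0.0375 in edgeR) were gained. For the difference between the lines, 44 were called with miR-21-5p and 42 without it, and the calls of miR-340-3p and miR-503-5p were lost. The MV4-11 calls depended on single libraries: without Molm-14 EV library 2, 38 miRNAs were called with miR-21-5p in the scaling and 27 without it, 20 in common, and without Molm-14 EV library 3 these were 34 and 21, with 16 in common. Molm-14 EV libraries 2 and 3 were the TMM reference libraries on all 12 libraries. Every fit that left out 1 library also changed the filter, with 669 to 684 other miRNAs kept against 658. Without Molm-14 MPC1 KO library 1, not a reference on all 12 libraries, the median shift was -0.080 in MV4-11 and -0.062 in Molm-14. The MV4-11 calls there were 20 with miR-21-5p in the scaling and 17 without it, 16 in common. The part of the reference and of the filter in these changes was not tested. With total counts on all 12 libraries, in MV4-11, 26 miRNAs were called with miR-21-5p in the total, 20 of them higher, and 18 without it, 12 of them higher, all 18 in common. In Molm-14 total counts gave 50 and 45 calls, 44 in common.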

How the data were processed

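The 12 small RNA libraries were grouped by the cell line and genotype in their labels. The authors deposited raw counts, the reads counted on each mature miRNA, with no normalization. The submitters' processing notes name STAR 2.5.2, featureCounts 1.5.1 and GRCh38, without saying whether these made the miRNA counts or how reads matching several miRNAs were treated.

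From the deposited counts, edgeR 4.0.16 (R 4.3.3) was run with filterByExpr (minimum count 10, which kept 659 of 1204 miRNAs), TMM scaling and a robust quasi-likelihood fit of 4 group means over all 12 libraries. The threshold was a Benjamini-Hochberg adjusted p of 0.05. Arm ratios, log2 of 5p over 3p counts with 0.5 added to each, were fitted in limma 3.58.1 over 99 of 349 hairpins. Alternatives were DESeq2 1.42.0, limma-voom, other scalings and filters, fits per line, a replicate block and leaving out each library. Both models were tested on simulated data with known changes. Those changes were larger than the ones seen for the miR-21 arms, so detection of changes of this size was not tested. Total counts were 3870104 to 8683456. At this depth counting error was small beside the spread between libraries for miR-21-5p, but not for every miRNA. For miR-21-3p in Molm-14 EV library 1 the interval was 185 to 209 CPM, with a group SD of 13.8. Intervals on shares and ratios are exact binomial at 95%. Permutation tests were exact and two-sided.

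The members and lists were chosen with earlier results of these data known. The rule for named miRNAs took both arms, the other miRNAs with the 5 largest mean shares in a group, those sharing the seed, the 3 nearest in pattern to each arm, the list of 8, at most 10 whose call changed without miR-21-5p, and the extreme called arm ratios, of which there were none. miR-30d-5p and miR-20a-5p, also within the rule, are not described further. The hairpins with the strongest arm bias and the miRNAs below EV in both lines were named after their values were seen.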

Additional observations from a re-analysis of the deposited data

How the results depend on the processing

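Both arms kept a log2 fold change below 0 in each line under every alternative run. In MV4-11, miR-21-5p passed the threshold with upper-quartile factors (-0.41, where the median of the other miRNAs was -0.12, against -0.0032 with TMM), with miRNAs averaging at least 100 counts (-0.30), with DESeq2 (-0.31) and with limma-voom (-0.30), and over fits leaving out 1 library it lay between -0.38 and -0.23, passing without MV4-11 EV library 3 (adjusted p = 0.0408 in edgeR). miR-21-3p no longer passed with RLE factors (-0.43), total counts (-0.37), miR-21-5p left out of the totals (-0.42), limma-voom (-0.42) or edgeR on each line (-0.47). Leaving out 1 library, it lay between -0.57 and -0.33, and kept its call only without MV4-11 EV library 1, MV4-11 MPC1 KO library 2 or Molm-14 MPC1 KO library 3. In Molm-14 no alternative called miR-21-5p. The cause of these changes was not tested.

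Same-numbered MPC1 KO and EV libraries showed little likeness: their deviations from the group means correlated between -0.16 and 0.15. This does not settle whether they were prepared as pairs. With a replicate block, miR-21-3p passed in Molm-14 (-0.35, adjusted p = 0.0427 in edgeR). The difference between the lines changed sign for miR-21-3p without MV4-11 EV library 2 (-0.01) and lay between -0.012 and 0.24 over such fits, and that of the arm ratio, between -0.15 and 0.098, changed sign in 4 of 12 (-0.15, -0.08, -0.08 and -0.05).

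In MV4-11, 31 miRNAs were called with DESeq2, and 12 to 38 when leaving out 1 library (12 without MPC1 KO library 1, 38 and 34 without Molm-14 EV libraries 2 and 3). Calls without miR-21-5p in the scaling were 13 to 27 there. The median shift of the other miRNAs was -0.066 (MV4-11) and -0.029 (Molm-14) with total counts, 0.00074 and -0.00047 with RLE, and 0.00021 and -0.011 with upper-quartile factors. With the reference library held, the shift computed from the scaled totals was -0.012 and 0.00013. Leaving out 1 library, the median shift ranged from -0.10 to 0.021 in MV4-11 and from -0.081 to 0.029 in Molm-14, lowest without Molm-14 EV library 3 and library 2, respectively.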
